A study of Mus musculus with 24 samples.

Results

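The change of the efferent duct between embryonic day 16.5 (E16.5) and E18.5 was measured on 4 of the 24 arrays of a developmental series: 2 arrays of efferent duct at E16.5 and 2 at E18.5, chosen by the tissue and age in their labels. The series holds efferent duct, epididymis and vas deferens from male CD1 mice, an outbred strain, on postnatal day 1 (P1) and at E18.5, E16.5 and E14.5, with 2 arrays for each of 12 groups. No mutation or treatment is named for any group, and the embryos came from pregnant CD1 females. The labels do not say whether the 2 arrays of a group came from separate animals, litters or pools, so a p-value measures the spread between these arrays, which may be technical. The question set by the design is how gene expression in each segment of the male tract changes with age and how the segments differ.

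The efferent ducts are the fine tubules that carry sperm and fluid from the rete testis to the epididymis. They arise from mesonephric tubules, while the epididymis and vas deferens arise from the Wolffian duct. In the adult they take back most of the testicular fluid through aquaporins, sodium and proton exchangers and a leaky tight junction rich in claudin 2, under control of oestrogen receptor alpha. Their epithelium has absorptive cells with a brush border and an endocytic apparatus, and multiciliated cells that stir the fluid.

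Total RNA was hybridised to Affymetrix arrays, and each deposited value is the ratio of a probe set to its own median over the 24 arrays. On the log2 scale used here, 0 is that median. Such ratios show differences between samples and hold no level, so genes cannot be ranked by abundance. The tissue label was checked against 10 genes typical of efferent duct, including Pdzk1, Vil1, Aqp1, Lrp2, Cubn, Cldn2 and Slc26a3. All 10 were higher in efferent duct than in epididymis at both ages, with no overlap of arrays. The difference was 4.95 (log2) at E16.5 and 4.74 at E18.5 for Pdzk1, a scaffold of the brush border. It was 4.19 and 4.31 for Cldn2, the claudin of leaky junctions. It was much smaller for Foxj1 (0.277 and 0.465) and for Slc9a3 (0.854 and 0.259). In efferent duct Slc9a3 was at 0.23 and 1.00 at E16.5 and at 0.05 and 0.00 at E18.5. The share of all genes separated in this way was not counted. In bulk tissue, more or fewer cells of a type and more or less RNA per cell cannot be told apart.

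The E16.5 arrays had weaker controls than the E18.5 arrays. The mean log2 ratio of 9 hybridisation control probe sets, which report RNAs added at hybridisation, was -0.71 and -1.31 on the E16.5 arrays against -0.27 and -0.39 on the E18.5 arrays. The interquartile range of all log2 ratios was 0.48 and 0.61 at E16.5 and 0.20 and 0.23 at E18.5. The E14.5 arrays of efferent duct had the same wide spread, at 0.53 and 0.52, with control means of -0.40 and -1.09. The difference between the 5' and 3' probe sets of Gapdh, a sign of RNA integrity, was 0.05 and 0.13 at E16.5 and 0.04 and 0.14 at E18.5, so it did not separate the ages. The same difference for Actb was 0.04 and -0.02 at E16.5 and 0.12 and 0.13 at E18.5, which did separate them, and its part in the changes below was not tested.

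**Figure D1:**
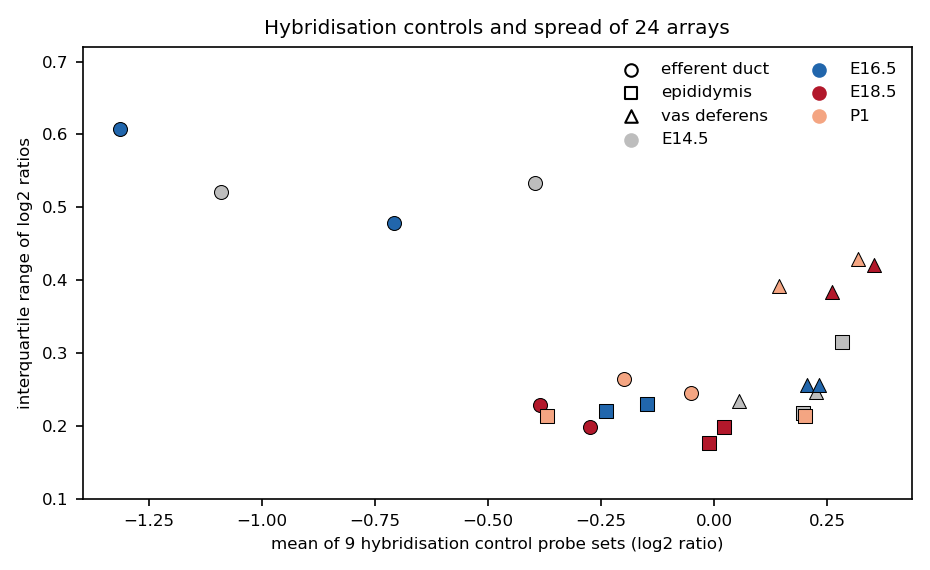
Each symbol is an array, with the mean log2 ratio of 9 hybridisation control probe sets on the horizontal axis and the interquartile range of all log2 ratios on the vertical axis, shape for tissue and colour for age. Both early ages of efferent duct, with 4 arrays, have the widest spread, from 0.48 to 0.61, and both E18.5 efferent duct arrays lie with the epididymis arrays.

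Because of this, a change was counted as supported only when it passed an adjusted p of 0.05 on the deposited scale, passed in the same direction after the arrays had been brought to a common distribution by quantile normalization, and, for genes with several probe sets, when at least 2 probe sets passed in that direction on both scales. Of 18193 genes tested with limma, 7344 passed on the deposited scale (40.4%), 4500 of them higher at E18.5 (24.7%) and 2844 lower (15.6%). Quantile normalization left 3560 (19.6%). The full rule left 2104 genes (11.6%), of which 1142 were higher at E18.5 (6.28%) and 962 lower (5.29%). In these, 315 rose (1.73%) and 170 fell (0.934%) by 2-fold or more. Among the 9010 genes with several probe sets 407 were supported higher (4.52%) and 124 lower (1.38%), and among the 9183 genes with a single probe set 735 were higher (8.0%) and 838 lower (9.13%). The median change of all genes was 0.13 on the log2 scale as deposited and 0.03 after quantile normalization, and the changes below are as deposited. The counts depended on single arrays. The 7344 became 4520 without E16.5 replicate 2 and 3851 without E18.5 replicate 1. The supported genes numbered 1430 without E16.5 replicate 1, 1016 without E16.5 replicate 2, the array with the weakest controls, 664 without E18.5 replicate 1 and 1231 without E18.5 replicate 2, and 472, of which 285 were higher and 187 lower, were supported in all 4 refits. For the gene groups below, the numbers in these 4 refits are given in that order and called refits. Rises and falls of a group stand against the 6.28% higher and 5.29% lower of all genes.

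The largest rises seen in 2 or more probe sets were of matrix, signalling and plasma protein genes, and their E18.5 arrays lay close together. Mfap5, which encodes a protein of elastic microfibrils, was at -0.53 and -0.09 at E16.5 and at 3.30 and 3.23 at E18.5. It rose 11.9-fold (log2 3.57 ± 0.16, SE, n = 2 arrays per age, adjusted p = 4.4e-10), and its second probe set gave 7.16-fold. All 8 probe sets of Cp, which encodes the copper-carrying plasma ferroxidase ceruloplasmin, rose: the gene stood at 1.97 and 1.24 at E16.5 and at 4.50 and 4.32 at E18.5, a rise of 6.98-fold (log2 2.80 ± 0.21, adjusted p = 1.68e-07). At E14.5 Cp had been near the series median, at -0.01 and -0.04, and at P1 it reached 5.20 and 4.68. Its arrays followed the order of age without overlap.

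Socs2, a feedback inhibitor of cytokine and growth hormone receptors, was at -1.40 and -1.67 at E16.5 and at 1.23 and 0.93 at E18.5, a rise of 6.13-fold (log2 2.62 ± 0.23) with 4 of 6 probe sets in support. Cd44, the hyaluronan receptor, went from -0.41 and -0.59 to 1.71 and 1.69, a rise of 4.61-fold (2.20 ± 0.14). Zbtb20, a zinc-finger repressor, rose 3.09-fold (1.63 ± 0.21) with 8 of 9 probe sets in support. In none of these 3 genes did the arrays of the ages overlap. Such separation, given here and below, held in 72.7% of all genes and in 2101 of the 2104 supported genes. It therefore adds little to the rule. The other leading genes with several probe sets were Fabp4, a fatty acid carrier of fat cells and endothelium, Lyve1, the hyaluronan receptor of lymphatic vessels, Col4a4 and Col4a3, chains of the collagen IV of mature basement membranes, Ank2, a membrane skeleton adaptor, Adcy7, an adenylyl cyclase, and Fgl2, a secreted fibrinogen-like protein. These rose by 2.95-fold (Col4a3) to 4.59-fold (Fabp4). Of these 12 genes 11 were supported in all 4 refits, and Fabp4 in 3 of them.

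Among genes with a single probe set, Abca8a, a lipid transporter, showed the largest rise. It was at 0.00 and 0.15 at E16.5 and at 3.48 and 3.46 at E18.5, a rise of 10.5-fold (3.40 ± 0.19, adjusted p = 1.38e-08), and it was at 3.50 and 4.25 at P1. C1qtnf3, a secreted C1q-like protein, rose 7.01-fold, and Dmkn, which encodes the secreted protein dermokine, rose 6.53-fold. Tnxb, the matrix glycoprotein tenascin X, rose 5.0-fold, Pappa2, a protease of IGF-binding proteins, 4.78-fold, and Folh1, a folate hydrolase of the cell surface, 4.53-fold. No second probe set was there to check these 6, which were supported in all 4 refits.

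**Figure D2:**
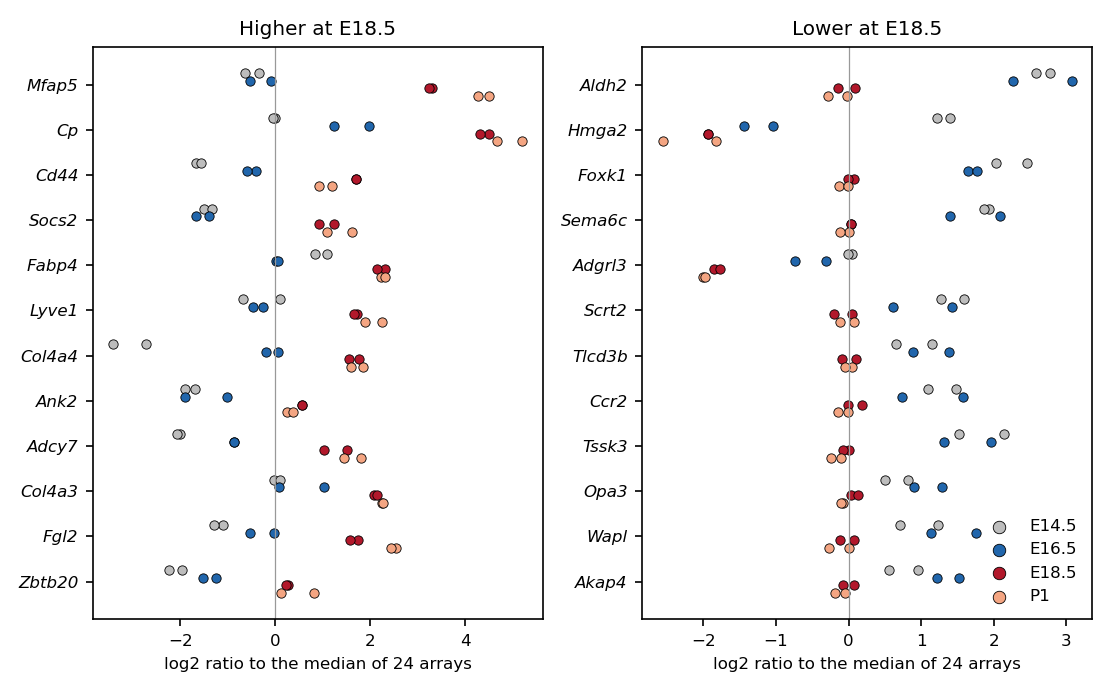
Each point is an efferent duct array, coloured by age, and the horizontal axis is the log2 ratio to the median of 24 arrays for the 12 genes with the largest supported change in each direction among genes with several probe sets. On the left the E18.5 arrays lie above those of E16.5 and mostly close to P1. On the right the E18.5 arrays of most genes lie near 0 and only the E14.5 and E16.5 arrays are raised.

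Genes induced by low oxygen and genes of glycolysis formed the list with the highest share of supported rises in the fit of all arrays. In cells short of oxygen the factor HIF is stabilised and switches on glucose uptake, glycolysis, vessel growth through VEGF, and the prolyl hydroxylases that feed back on it. Of 23 measured genes 14 rose and 0 fell, and 5, 5, 6 and 4 rose in the refits. The list's median change was 0.56 (log2), and 0.57 after quantile normalization, against 0.13 and 0.03 over all genes. The remaining 9, among them Ldha, Pgk1 and Hk2, did not pass, with changes of 0.24 to 1.17.

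Ndrg1, a stress-response gene strongly induced by hypoxia, was at 0.90 and 0.92 at E16.5 and at 2.56 and 2.49 at E18.5, a rise of 1.61 ± 0.21 (log2, adjusted p = 3.41e-05) in 5 of 5 probe sets. Egln3, a HIF prolyl hydroxylase, was at -0.68 and -0.76 and then at 0.54 and 0.85, a rise of 1.41 ± 0.16. P4ha1, the collagen prolyl hydroxylase, rose by 1.42 ± 0.39 from -0.19 and 0.15 to 1.30 and 1.5, and its relative P4ha2 by 0.96 ± 0.17. The 2 ages did not overlap in any of these genes. Vegfa, the vessel growth factor, was at -0.99 and -0.70 at E16.5 and at 0.26 and 0.32 at E18.5, a rise of 1.14 ± 0.14. Pdk1, which keeps pyruvate out of mitochondria, rose by 0.90 ± 0.20. The glycolytic enzymes rose less: Pfkp by 0.79 ± 0.14, Aldoa by 0.73 ± 0.14 with 4 of 5 probe sets in support, Pfkl by 0.40 ± 0.15 and Pkm by 0.33 ± 0.12. Smaller rises were also seen in Ankrd37, a HIF target of 0.57 ± 0.15, in the glucose transporter gene Slc2a1 (0.49 ± 0.14), in Car9, a carbonic anhydrase of the cell surface (0.49 ± 0.14), and in Bnip3, a gene of mitochondrial clearance (0.46 ± 0.12).

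HIF binds a short core, of which only the form ACGTG was searched here. The 250 bases before the transcription start, taken from RefSeq (assembly GRCm38.p6) at the first listed start of a gene, held these letters on either strand in 12 of the 21 list members with an entry (57.1%), and in 7 of the 13 supported members (53.8%). The share was 16.6% of all 27025 promoters and 19.8% of the 14452 promoters of genes tested. The 3 promoters below are shown as examples from the 4 genes that rose and hold the letters within 50 bases of the start. The core is in capitals, read as CACGT where it lies on the other strand.
P4ha1 (chr10:59323046-59323295, plus strand): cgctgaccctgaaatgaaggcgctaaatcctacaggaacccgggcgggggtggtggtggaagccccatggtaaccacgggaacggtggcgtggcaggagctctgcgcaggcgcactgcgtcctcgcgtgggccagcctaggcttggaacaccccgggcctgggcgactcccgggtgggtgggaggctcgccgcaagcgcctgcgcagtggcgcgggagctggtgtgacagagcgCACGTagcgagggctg
Slc2a1 (chr4:119108495-119108744, plus strand): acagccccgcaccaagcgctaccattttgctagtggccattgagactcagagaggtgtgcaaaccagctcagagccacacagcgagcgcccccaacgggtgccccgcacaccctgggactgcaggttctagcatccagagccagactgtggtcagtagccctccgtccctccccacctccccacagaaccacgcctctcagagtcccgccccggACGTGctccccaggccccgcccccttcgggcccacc
Car9 (chr4:43506776-43507025, plus strand): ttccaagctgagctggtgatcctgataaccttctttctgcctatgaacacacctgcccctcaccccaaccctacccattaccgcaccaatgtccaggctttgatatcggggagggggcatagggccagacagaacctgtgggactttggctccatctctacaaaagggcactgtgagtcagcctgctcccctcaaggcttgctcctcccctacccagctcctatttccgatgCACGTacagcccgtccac
The first base of the core lay 16 bases before the start in P4ha1, 36 in Slc2a1 and 18 in Car9. In Ankrd37, the other such gene, it lay 6 bases before. Matches farther from the start were present in Egln3, P4ha2 and Bnip3. In Vegfa, Pdk1, Pfkp, Aldoa, Pfkl and Pkm these letters are not in this window. A match describes the sequence only.

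The rise of this group was followed by lower values at P1. In all 14 genes both P1 arrays of efferent duct were below both E18.5 arrays, on the deposited scale and after quantile normalization, whereas among all 1142 genes supported higher this held for 245 (21.5%) and for 367 (32.1%) after quantile normalization. The pattern was noticed in these data and was not tested. Slc2a1 was at 0.24 and 0.60 at E18.5 and at -1.03 and -1.27 at P1, and Ankrd37 went from 0.44 and 0.44 to -0.76 and -1.06, so that both ended below their E16.5 values. In the epididymis, measured for comparison, 10 of the 14 had both E18.5 arrays above both E16.5 arrays and 13 had both P1 arrays below both E18.5 arrays, against 657 (57.5%) and 160 (14%) of the 1142. Vegfa differed between the segments: its change exceeded that of the epididymis by 1.26 (log2, adjusted p = 0.000549), and by 1.10 after quantile normalization (adjusted p = 0.00444), although its rise was supported in 0 of the 4 refits. That of Egln3 exceeded it by 1.06 as deposited (adjusted p = 0.0033) and by 0.64, without passing, after quantile normalization (adjusted p = 0.101). For Ndrg1 the difference was 0.06 as deposited (adjusted p = 0.895) and -1.05 after quantile normalization (adjusted p = 0.0174).

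**Figure D3:**
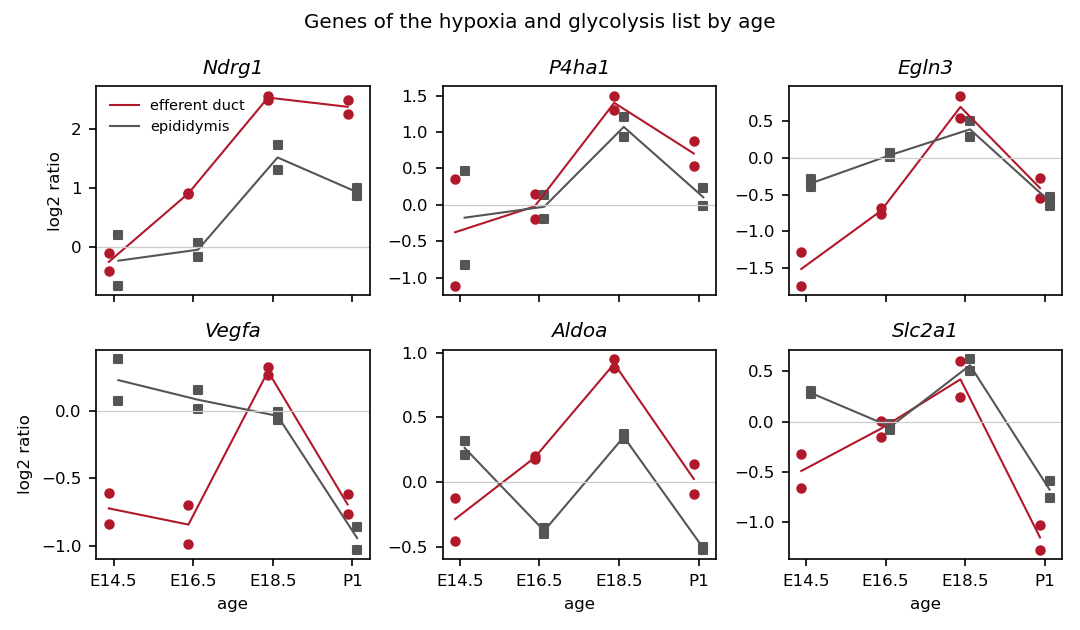
Points are single arrays and lines join the means of 2 arrays, with age on the horizontal axis and the log2 ratio to the median of 24 arrays on the vertical axis, for 6 genes of the hypoxia and glycolysis list in efferent duct (red circles) and epididymis (grey squares). In the efferent duct all 6 are highest at E18.5.

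Matrix genes were among those that rose. The interstitial matrix is laid down by fibroblasts and smooth muscle, and the basement membrane by epithelium and its neighbours. Of 28 interstitial matrix genes 10 rose and 0 fell (median change 0.53, and 0.57 after quantile normalization), with 5, 9, 3 and 8 rises in the refits. Besides Mfap5 and Tnxb these were Aspn, a small proteoglycan, from -0.12 and -0.42 to 1.21 and 1.21 (1.48 ± 0.38), Col12a1, which decorates collagen fibrils (1.32 ± 0.19), Eln, the elastin gene, from -0.77 and -0.54 to 0.44 and 0.28 (1.01 ± 0.18), Fbln1, Postn, Col5a1, Col5a2 and Col6a1. The arrays of the 2 ages did not overlap in the genes given with array values. The main fibrillar collagens did not meet the rule: the changes were 0.51 for Col1a1, 0.36 for Col1a2 and 0.42 for Col3a1.

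Of 21 basement membrane genes 4 rose and 0 fell, against 6.28% and 5.29% of all genes, with 2, 3, 2 and 3 rises in the refits. Col4a4 was at 0.06 and -0.19 at E16.5 and at 1.76 and 1.55 at E18.5 (1.72 ± 0.18, 3 of 3 probe sets), after -3.41 and -2.72 at E14.5. Col4a3, its partner in the collagen IV trimer, was at 0.07 and 1.02 and then at 2.07 and 2.14 (1.56 ± 0.22). Both were separated by age, although the E16.5 arrays of Col4a3 were far from each other. Nid1, which links laminin to collagen IV, rose by 1.11 ± 0.29, and Lamb2, a laminin chain of mature basement membranes, by 1.05 ± 0.22. The general chains Col4a1 and Col4a2, at 0.54 and 0.47, did not meet the rule. Smooth muscle genes rose in 5 of 23 cases and fell in 0, against 6.28% and 5.29% of all genes. Among the risers were the contractile protein genes Tagln (0.71 ± 0.13) and Myl9 (0.62 ± 0.10). In the refits 3, 3, 2 and 2 rose. Acta2, smooth muscle actin, changed by 0.61 as deposited and by 0.27, without passing, after quantile normalization, with support from 0 of 3 probe sets. Myh11 changed by 1.26 with support from 1 of 2.

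**Figure D4:**
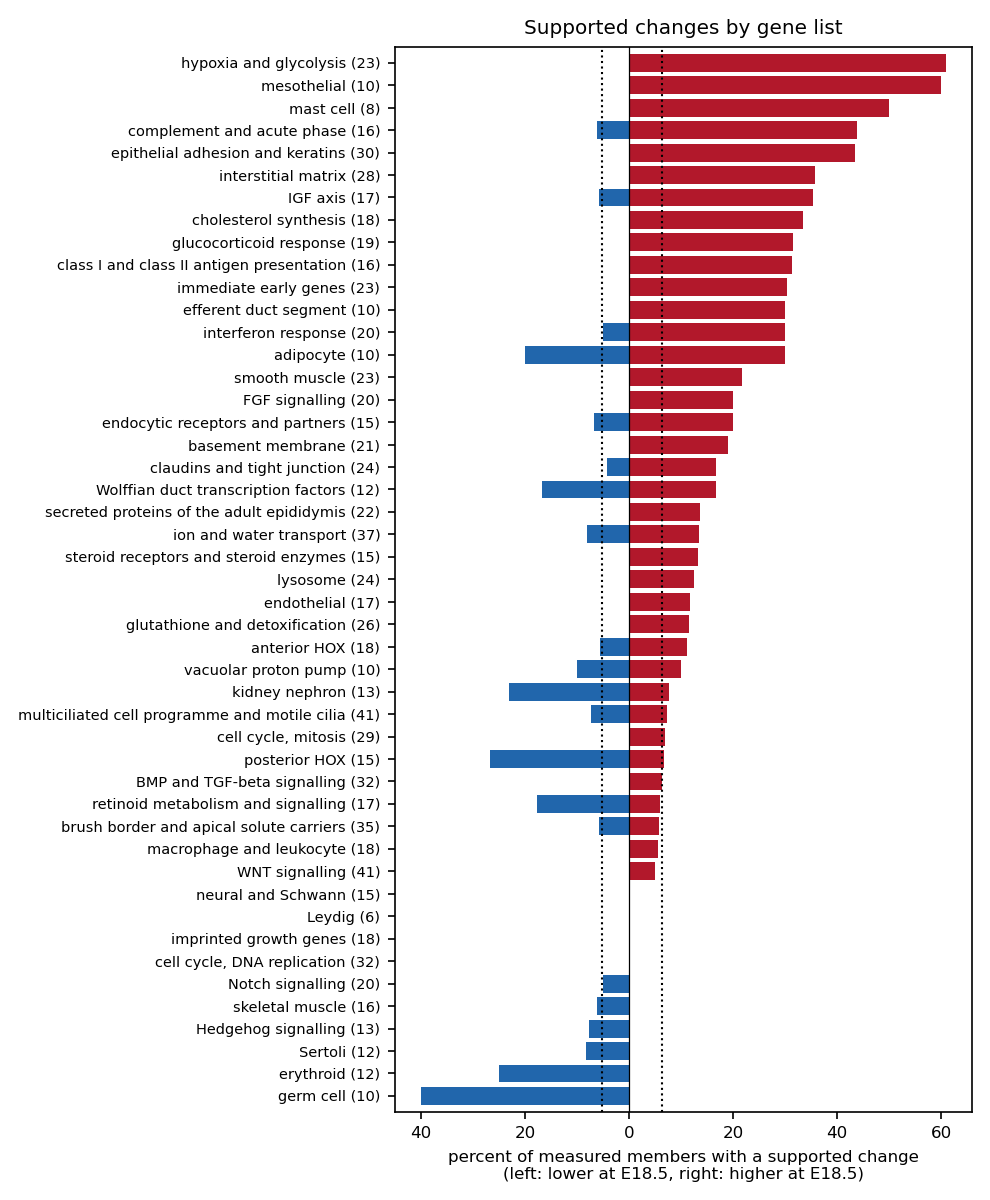
Bars give the percent of measured members of each gene list with a supported change, to the right for higher and to the left for lower at E18.5, with the number of members in brackets, and dotted lines give the percent over all genes, 6.28 higher and 5.29 lower. The hypoxia and glycolysis list (14 of 23) and the mesothelial markers (6 of 10) have the longest bars to the right, and germ cell markers (4 of 10) the longest to the left.

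Epithelial genes also rose. Of 30 genes of adhesion and keratins 13 rose and 0 fell, with a median change of 0.53. In the refits 10, 4, 3 and 6 rose. Krt14, a keratin of basal cells, was at -0.47 and -0.34 at E16.5 and at 0.95 and 1.01 at E18.5 (1.38 ± 0.13); 1 of its 3 probe sets passed in the opposite direction. Krt19 went from -0.49 and -0.43 to 0.74 and 0.81 (1.24 ± 0.15). Neither gene's arrays overlapped between the ages. The desmosome genes Dsg2 (0.99 ± 0.25), Pkp2 (0.87 ± 0.17) and Dsp (0.86 ± 0.22) rose, as did Ehf, an epithelial transcription factor (1.03 ± 0.21), and the simple-epithelium keratins Krt8 (0.65 ± 0.15) and Krt18 (0.51 ± 0.14). Epcam and Cdh1, at 0.52 and 0.80, did not meet the rule.

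Of 24 genes of claudins and tight junctions 4 rose and 1 fell, with 6, 1, 1 and 2 rises in the refits. Over all genes 6.28% rose and 5.29% fell, so 1 fall in 24 is near that share. Cldn2 was at 3.76 and 3.47 at E16.5 and at 4.51 and 4.58 at E18.5 (0.93 ± 0.22). Marveld2, which encodes tricellulin, a protein of the points where several cells meet, was at 0.00 and -0.18 and then at 1.30 and 1.12 (1.30 ± 0.14). Cldn4 rose by 0.78 ± 0.14 and Cldn3 by 0.44 ± 0.12, while Cldn16, a claudin of cation transport in kidney, fell by 0.87 on the log2 scale. All of these were separated by age.

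Transport genes moved in both directions. Of 37 genes of ion and water transport 5 rose and 3 fell, against 6.28% and 5.29% of all genes. In the refits 5, 2, 2 and 3 rose and 3, 1, 1 and 2 fell. Aqp1, the water channel of absorptive cells, was at 0.00 and 0.31 at E14.5, 1.97 and 2.0 at E16.5, 3.14 and 3.09 at E18.5 and 3.43 and 3.40 at P1; its change was 1.13 ± 0.13, and 0.49 after quantile normalization. Fxyd3, a modulator of the sodium pump, rose by 1.19 ± 0.17, and the potassium channel genes Kcne3 and Kcnj16 by 1.07 ± 0.14 and 0.99 ± 0.22. Kcne3 was at 0.95 and 1.17 at E18.5 and back at 0.17 and -0.01 at P1. Aqp2, the water channel of the kidney collecting duct, fell from 0.99 and 1.18 to -0.14 and 0.06. Cftr (0.39), Slc9a3 (-0.59) and Slc26a3 (-0.05), all carriers of efferent duct fluid transport, did not pass the rule.

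Of 35 genes of the brush border and apical carriers 2 rose and 2 fell (2, 2, 1 and 2 rises and 1, 1, 0 and 2 falls in the refits), near the shares of all genes, 6.28% and 5.29%. Enpep, an apical peptidase, rose by 0.93 ± 0.13 as deposited and 0.36 after quantile normalization, with support in 1 of the 4 refits, while Slc34a1, the phosphate carrier, fell from 0.98 and 0.85 to 0.04 and 0.08, and the disaccharidase gene Treh fell from 0.91 and 0.63 to -0.09 and 0.00. Vil1 and Pdzk1, which mark the brush border, changed by 0.85 and 0.07 and did not meet the rule. Of 15 endocytic receptors and partners 3 rose and 1 fell: Cd36, a scavenger receptor, by 1.60 ± 0.15, Vldlr, a lipoprotein receptor, by 1.46 ± 0.28, Scarb1, the HDL receptor, by 1.05 ± 0.16, and Amn, the partner of cubilin, was lower by -0.48 ± 0.17, a change that turned to 1.18 when the arrays were scaled to a common spread. In the refits 4, 0, 1 and 2 of these genes rose. The megalin gene Lrp2, at 0.83 with support from 1 of 3 probe sets, and Cubn, at 0.62, did not meet it.

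Genes of the multiciliated cell showed no common direction, with shares near the 6.28% and 5.29% of all genes: 3 of 41 rose and 3 fell (1, 1, 1 and 3 rises and 3, 2, 1 and 2 falls in the refits). Foxj1, the master factor of motile cilia, was at 0.10 and 0.18 at E16.5, 0.52 and 0.37 at E18.5 and 0.83 and 0.65 at P1, a change of 0.31 ± 0.11 (adjusted p = 0.0301). Tppp3, a tubulin-binding protein abundant in ciliated cells, was at -0.41 and 0.17 and then at 2.06 and 2.01 (2.16 ± 0.18), while Trp73, a transcription factor upstream of Foxj1, fell from 0.87 and 1.03 to 0.07 and 0.12. Most axonemal genes did not pass, among them Dnah5 (-0.25) and Rsph1 (-0.36).

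Of 15 genes of steroid receptors and enzymes 2 rose and 0 fell, both on the oestrogen side. Esr1, oestrogen receptor alpha, was at -1.33 and -1.52 at E16.5 and at -0.30 and -0.14 at E18.5 (1.21 ± 0.24), and reached 0.38 and 0.10 at P1. Its change exceeded that of the epididymis by 1.30 as deposited (adjusted p = 0.0106) and by 0.84 after quantile normalization, where it did not pass (adjusted p = 0.0845). Sult1e1, which inactivates oestrogens, was at 1.96 and 1.84 and then at 3.31 and 3.81 (1.66 ± 0.29). The changes were 0.73 and 1.08 after quantile normalization. The arrays of the ages did not overlap in either gene. Neither was supported in any of the 4 refits. Nr3c1, the glucocorticoid receptor, changed by 1.24 with 3 of 6 probe sets in support but did not hold for its main probe set after quantile normalization. Of 19 genes induced by glucocorticoids 6 rose and 0 fell (2, 3, 1 and 4 rises in the refits), among them Klf9 (0.93 ± 0.28, with 4 of 7 probe sets in support and 1 passing the opposite way), Tsc22d3 (0.88 ± 0.28), Errfi1 (0.96 ± 0.23) and Ddit4 (0.82 ± 0.13), while Fkbp5 (0.32), Per1 (0.18) and Mt2 (0.14) did not pass.

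Genes that tune IGF signalling rose. Pappa and Pappa2 encode proteases that free IGF from its binding proteins, and stanniocalcin 2 inhibits them. Of 17 genes of the IGF axis 6 rose and 1 fell, and 5, 6, 6 and 4 rose in the refits. Pappa was at -0.79 and -0.55 at E16.5 and at 1.03 and 1.07 at E18.5 (1.72 ± 0.12), and Pappa2 at -0.54 and -0.37 and then at 1.65 and 1.96. Stc2 rose by 0.97 ± 0.19 with 3 of 3 probe sets, and the binding protein genes Igfbp6, Igfbp2 and Igfbp7 by 1.24 ± 0.17, 0.73 ± 0.13 and 0.53 ± 0.13. Irs2, an adaptor of the insulin receptor, fell from 0.45 and 0.74 to -0.42 and -0.17. Igf1 (0.75), Igf2 (0.49) and Igf1r (0.71) did not meet the rule.

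Cholesterol synthesis genes rose in 6 of 18 cases and fell in 0, but 1, 2, 1 and 1 rose in the refits. Insig1, the sterol sensor, was at -1.18 and -1.11 and then at -0.03 and 0.03 (1.15 ± 0.24), and the enzyme genes Sc5d, Ebp, Dhcr7, Tm7sf2 and Sqle rose by 0.31 to 0.74. Immediate early genes, which respond within minutes to growth factors, stress or handling, rose in 7 of 23 cases and fell in 0 (5, 4, 2 and 5 rises in the refits). Klf4 was at -0.66 and -0.84 and then at 1.17 and 0.64 (1.65 ± 0.24), and Ccn1 at -0.05 and 0.04 and then at 1.33 and 1.16 (1.25 ± 0.20). The classic members Fos, Egr1 and Jun, at 0.47, 0.55 and 0.48, did not pass the rule.

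Defence genes also rose. Of 16 genes of complement and the acute phase 7 rose and 1 fell, and 8, 5, 5 and 7 rose in the refits. Beside Cp the risers were C2, a protease of the classical pathway, from -1.22 and -0.35 to 1.12 and 1.01 (1.85 ± 0.23, 3 of 3 probe sets), the complement regulators Cd55 (1.47 ± 0.22), Cfi (1.35 ± 0.14, and 0.76 after quantile normalization) and Serping1 (0.74 ± 0.10), and the initiating proteases C1s1 and C1ra, while C6 fell by 0.60. Of 20 interferon response genes 6 rose, led by Ifit2 (1.34 ± 0.32) and Gbp2 (1.33 ± 0.18), and Rsad2 fell by 0.70; 6, 5, 4 and 5 rose in the refits. Of 16 antigen presentation genes 5 rose and 0 fell, but 4, 0, 0 and 1 rose in the refits. H2-Aa, a class II chain, was at 0.51 and 0.09 and then at 1.90 and 1.66 (1.48 ± 0.13), and it reached 2.95 and 3.11 at P1. The class I genes H2-K1 and H2-D1, near-identical relatives whose probes may cross-react, rose by 0.86 ± 0.19 and 0.84 ± 0.22, and 1 of the 9 probe sets of H2-D1 passed in the opposite direction.

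Markers of other cells moved beside these groups. Mesothelial markers, of the cell layer that covers the ducts, rose in 6 of 10 cases and in 6, 4, 5 and 4 in the refits: Lrrn4 was at -1.24 and -1.5 and then at 0.62 and 0.63 (1.99 ± 0.30), Msln, mesothelin, at -0.11 and 0.11 and then at 1.65 and 1.60 (1.62 ± 0.19), and Upk1b, Upk3b, Rspo1 and Krt19 rose by 0.78 to 1.24. The mean log2 ratio of the 10 was -0.30 and -0.45 at E16.5 and 0.57 and 0.57 at E18.5. Krt19 is also in the epithelial list and Rspo1 in the WNT list. Mast cell markers rose in 4 of 8 cases and in 3, 4, 3 and 4 in the refits: the granule proteases Cpa3 (1.51 ± 0.16), Cma1 (1.46 ± 0.23) and Mcpt4 (0.86 ± 0.14), and the receptor gene Kit (0.85 ± 0.13), and the mean of the 8 went from 0.01 and 0.04 to 0.65 and 0.55. Of 10 adipocyte markers 3 rose, Fabp4, Lpl and Cd36, which endothelium and macrophages also express, and 2 fell, Cidec and Retn (3, 2, 2 and 3 rises and 1, 1, 0 and 1 falls in the refits), while Adipoq (-0.29) and Pparg (-0.32) did not pass. Endothelial markers rose in 2 of 17 cases, Lyve1 and Esam, against 6.28% of all genes, and in 1, 3, 1 and 2 in the refits. Their mean was -0.71 and -0.64 at E16.5 and -0.08 and -0.23 at E18.5. The median change of these 17 was 0.49 as deposited and 0.15 after quantile normalization. The macrophage list had 1 supported rise in 18, Mrc1, near the 6.28% of all genes, and the neural and Leydig lists none. The part of these cells in the changes of matrix, epithelial and defence genes was not tested.

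Patterning and signalling genes moved in small numbers. Of 12 Wolffian duct transcription factors 2 rose and 2 fell, against 6.28% and 5.29% of all genes. In the refits 2, 0, 0 and 1 rose and 1, 0, 1 and 0 fell. Lhx1, a factor of the mesonephric and Wolffian epithelium, was at -1.88 and -2.12 at E14.5, 0.08 and 0.11 at E16.5 and 1.66 and 1.26 at E18.5 (1.37 ± 0.23), and Emx2, needed for the urogenital tract, rose from -1.62 and -2.0 to -0.51 and -0.76, by 1.18 as deposited and 0.60 after quantile normalization. Gata3 and Tfap2b fell by 0.80 and 0.53. Of 15 posterior HOX genes 4 fell and 1 rose, with 4, 2, 3 and 2 falls in the refits: Hoxd11 from -1.21 and -0.95 to -1.47 and -1.83, and Hoxb13, Hoxa13 and Hoxd12 by 1.06, 0.92 and 0.94, while the riser in this list was Hoxd8 (0.39), which belongs to a paralogue group anterior to those usually called posterior. In the retinoid list the plasma retinol carrier gene Rbp4 rose from -0.02 and -0.08 to 1.67 and 1.61 (1.69 ± 0.16), and 3 of 17 fell (2, 3, 2 and 3 in the refits), the cytoplasmic binding protein genes Crabp1, from -0.03 and -0.25 to -1.20 and -1.22, and Crabp2, from -0.66 and -1.18 to -1.61 and -1.41, and the retinoic acid hydroxylase gene Cyp26a1. The arrays did not overlap between the ages in any of these genes given by array.

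Of 20 FGF pathway genes 4 rose and 0 fell, with 3, 1, 2 and 1 rises in the refits: the ligand gene Fgf1 (1.03 ± 0.18) and the feedback inhibitors Spry4 (1.13 ± 0.19), Dusp6 (1.00 ± 0.14) and Spry1 (0.47 ± 0.15). WNT and BMP with TGF-beta signalling had 2 rises each, of 41 and 32 genes, and 0 falls (2, 1, 1 and 1 and 2, 2, 1 and 2 rises in the refits), a share near that of all genes. Hhip, which binds Hedgehog ligands, was lower by -0.80 ± 0.25, whereas it was higher by 1.51 in the epididymis. The test of that difference gave an adjusted p of 0.000495. Hhip was the 1 supported fall of 13 Hedgehog genes, against 5.29% of all genes. It was supported in 0 of the 4 refits, and 2 of its 4 probe sets were at -0.02 and 0 as deposited. Of 32 DNA replication genes 0 passed the rule in either direction, although 11 passed higher and 1 lower on the deposited scale, and their median change went from 0.31 as deposited to 0.12 after quantile normalization. In the mitosis list 2 of 29 rose, near the 6.28% of all genes, or 0, 0, 0 and 1 in the refits. The 2 were Foxm1 (0.66 ± 0.12) and Prc1 (0.56 ± 0.13). Imprinted growth genes had 0 supported changes of 18.

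The falls differed from the rises in kind. In 521 of the 962 genes supported lower (54.2%), the 4 early efferent duct arrays, those from before E18.5, all lay on the same side of the other 20 arrays of the series, against 127 of 1142 supported higher (11.1%) and 15.4% of all genes. For these genes age in the efferent duct cannot be told apart from the wide spread of the early arrays and the weak controls of most of them. Among genes named from the lists, the supported falls of this form were Trp73, Aqp2, Slc34a1, Treh, Hoxb13, Cyp26a1, Cidec, Pou5f1, Piwil2 and Actn2. The supported rises of this form were Egln3, Vldlr, Scarb1, Esr1, Upk1b, Emx2, Spry4, Foxm1 and Sc5d. Of the 12 largest falls with several probe sets, 9 had this form, and 5 of the 12 were supported in all 4 refits. Aldh2, mitochondrial aldehyde dehydrogenase, was at 2.58 and 2.77 at E14.5, 2.26 and 3.07 at E16.5, 0.09 and -0.14 at E18.5 and -0.29 and -0.02 at P1, a fall of 6.45-fold (-2.69 ± 0.21); 2 of its 5 probe sets passed in this direction and 1 in the other. Foxk1, a forkhead factor, went from 1.65 and 1.77 to 0.07 and -0.01, and Sema6c, a semaphorin, from 1.39 and 2.08 to 0.03 and 0.03. The sperm genes Akap4 and Tssk3, the chemokine receptor gene Ccr2, the neural factor gene Scrt2, Tlcd3b and the cohesin release factor gene Wapl showed the same form, lower by -1.07 (Ccr2) to -1.67 (Tssk3). On the E16.5 and E18.5 arrays of epididymis all 9 lay between -0.37 and 0.19.

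The 3 others were Adgrl3, Opa3 and Hmga2. Opa3 was at 0.82 and 0.50 at E14.5, 1.29 and 0.90 at E16.5 and 0.03 and 0.13 at E18.5. It had 2 of 5 probe sets in support, and the others changed by 0.12 to 0.34 without passing. Its fall was supported in 1 of the 4 refits. Adgrl3, an adhesion receptor, was at -0.74 and -0.31 and then at -1.85 and -1.77 (-1.29 ± 0.16), and it was supported whichever array was left out. Hmga2, a chromatin protein of growing embryonic tissue, was at 1.40 and 1.22 at E14.5, -1.04 and -1.44 at E16.5 and -1.94 and -1.94 at E18.5. Its main probe set fell by 0.70 (adjusted p = 0.043) and its second by 1.34, and the support was lost whichever array was left out. Hmga2 fell by 1.80 in the epididymis. Of the single probe set genes with the largest falls, 4 of 6 had the early arrays apart, among them Chad, a cartilage matrix protein, from 1.08 and 2.37 to -0.15 and 0.23, and Lect2, a secreted chemotactic protein, from 3.22 and 2.80 to 1.41 and 1.58; the change of Lect2 turned to 0.35 (adjusted p = 0.23) when the arrays were scaled to a common spread.

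Red cell genes fell in the efferent duct, and most of those named fell in the epididymis too. Hbb-y, the embryonic globin, singled out after its values were seen, was at 7.27 and 7.17 at E14.5, 1.88 and 0.28 at E16.5 and -1.46 and -1.71 at E18.5. It fell by 2.67 (± 0.38, 3 of 3 probe sets, adjusted p = 6.59e-05), and by 4.06 in the epididymis. Globin genes have near-identical relatives, so its probes may read more than 1 of them. Of 12 erythroid markers 3 fell and 0 rose, with 2 falls in each refit: Alas2, the haem synthesis gene of red cells, from 0.64 and 0.68 to -0.19 and -0.60, Slc4a1, the red cell anion exchanger, by 1.04, and Hba-a1 by 0.94. Hba-a1 was at 0.30 and 0.14 at E14.5, where Hbb-y was highest. It was at 0.70 and 1.14 at E16.5 and at -0.01 and -0.02 at E18.5. Whether its probe set reads red cells was not tested. Alas2 and Slc4a1 fell by 1.12 and 1.56 in the epididymis, while Hba-a1 changed there by -0.10 (adjusted p = 0.78), a difference of -0.83 that passed (adjusted p = 0.0056). After quantile normalization the differences of Hbb-y (5.48), Slc4a1 (1.59) and Alas2 (0.78) also passed, with the larger fall in the epididymis. Germ cell markers fell in 4 of 10 cases and in 2, 2, 1 and 3 in the refits: Pou5f1, Dppa3, Piwil2 and Dnd1, by 0.53 to 0.95, whereas Ddx4 (-0.07) and Dazl (-0.43), the defining markers, did not pass; all 4 were near 0 at E18.5, between -0.32 and 0.10. Kidney markers fell in 3 of 13 cases, or 1 in each refit, and rose in 1, with 1, 0, 0 and 1 rises in the refits. Skeletal muscle markers fell in 1 of 16, Actn2 (-1.32 ± 0.15). In Sertoli markers the fall of Cst9 was the 1 change of 12. Over all genes 5.29% fell, so 1 fall in 16 or in 12 is near that share.

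The epididymis, measured at the same ages on arrays with a narrow spread, served to show where the efferent duct differed. There 748 genes rose (4.11%) and 737 fell (4.05%) from E16.5 to E18.5, by adjusted p on the deposited scale alone. The like counts in the efferent duct were 4500 and 2844. The epididymis calls in the next 2 sentences were made in the same way, without the full rule. Of the 1142 genes supported higher in the efferent duct, 212 also rose in the epididymis (18.6%) and 27 fell (2.36%). Of the 962 supported lower, 28 also fell (2.91%) and 6 rose (0.624%). Cp rose in both, by 2.80 in the efferent duct and 2.40 in the epididymis, as did Socs2 (2.62 and 2.07), Col4a4 (1.72 and 1.65), Zbtb20 (1.63 and 1.35) and Msln (1.62 and 1.36). Adjusted p-values of these 5 differences were 0.223 to 0.865 as deposited. After quantile normalization the differences of Socs2 (-1.09, adjusted p = 0.0217) and Col4a4 (-1.5, adjusted p = 0.00043) passed, with the smaller rise in the efferent duct, so for these the comparison depended on the scale.

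**Figure D5:**
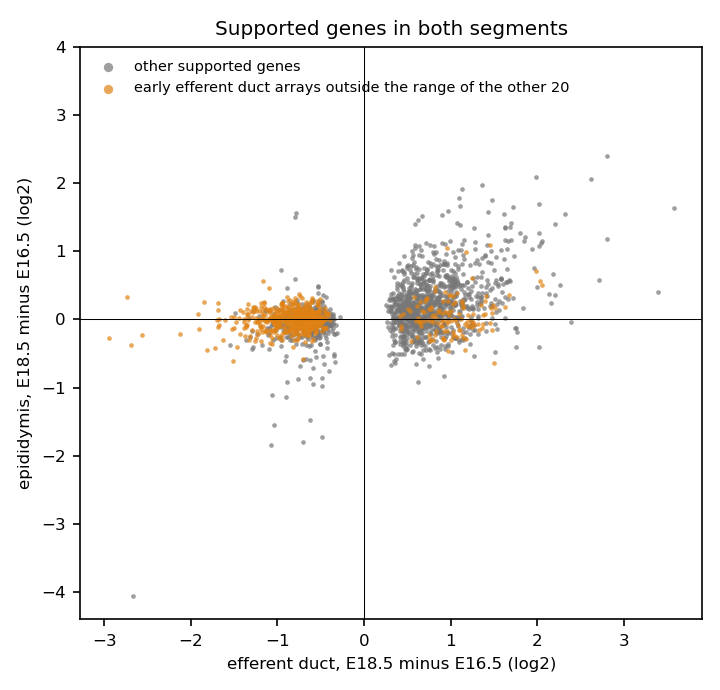
Each point is a gene with a supported change in the efferent duct, with its change there on the horizontal axis and its change in the epididymis on the vertical axis (both E18.5 minus E16.5, log2), orange where the 4 early efferent duct arrays lie outside the range of the other 20 arrays. Points on the right spread upward, while most points on the left lie near 0 on the vertical axis.

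The change itself differed between the segments in 4503 genes (24.8%), 2656 of them also after quantile normalization (14.6%), and 714 of these were supported in the efferent duct, 327 higher and 387 lower. The 4503 became 2312 without efferent duct E18.5 replicate 1, and 2722, 2567 and 2507 without epididymis E16.5 replicate 1, E16.5 replicate 2 and E18.5 replicate 1. Abca8a rose by 3.40 in the efferent duct and changed by 0.40 in the epididymis (difference 3.0, adjusted p = 1.58e-05). Fah, the last enzyme of tyrosine breakdown, went from 0.09 and 0.08 to 0.94 and 1.10 in the efferent duct and from 0.14 and 0.04 to -0.41 and -0.27 in the epididymis (difference 1.37, adjusted p = 2.82e-05). Cast, the calpain inhibitor, rose by 1.76 and changed by -0.12 (difference 1.88), and Pappa rose by 1.72 and changed by 0.31 (difference 1.41), with support in 2 of the 4 refits. Dmxl2, a proton pump regulator, had a difference of 1.33, with its early efferent duct arrays apart from the other 20. For Mfap5, which rose by 3.57 and 1.63, the difference of 1.94 passed as deposited (adjusted p = 7.47e-05) and not after quantile normalization (adjusted p = 0.481).

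On the other side, Pik3cd, Kalrn, Cytl1, Dnajc21 and Sobp fell in the efferent duct by 1.31 to 2.74 and changed by -0.23 to 0.33 in the epididymis, and in all 5 the early efferent duct arrays stood apart from the other 20. Dnajc21 had the largest of these falls, but 2 of its 5 probe sets were in support, the second at -0.76, and 1 passed in the opposite direction at 0.89. Pik3cd and Kalrn were supported in 2 of the 4 refits. Mamld1, a gene linked to male genital development, differed from these in the epididymis, where its E18.5 arrays were raised. In the efferent duct its early arrays were also above its later ones, with 0.63 and 0.31 at E14.5 and 0.08 and 0.12 at P1. Mamld1 fell from 0.81 and 0.80 to -0.13 and -0.17 in the efferent duct, and in the epididymis it went from -0.09 and -0.12 to 0.75 and 0.50 (difference -1.69, adjusted p = 2.82e-05). Irs2 also parted, at -0.89 and 0.46 (difference -1.35, adjusted p = 0.000286), and Emx2, at 1.18 and -0.29 (difference 1.47, adjusted p = 0.000648). The early efferent duct arrays of Emx2 stood apart from the other 20, and its rise was supported in 1 of the 4 refits.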

How the data were processed

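Per the labels, Trizol was used to extract total RNA, which was labelled with biotin for Affymetrix arrays. The submitters' processing notes name RMA, with no version. The deposited values are on a linear scale: in 45081 of 45101 probe sets (99.96%) the median of the 24 arrays was 1 within 1e-04, so the authors' value is a ratio to that median and holds no level. Its log2 was analysed. The 34945 probe sets with exactly 1 symbol gave 18193 genes, each read by its most variable probe set, a choice that leans towards large differences of any origin. Left out were 932 probe sets with several symbols, 9160 with none and 64 controls.

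Limma 3.58.1 (R 4.3.3) fitted 12 group means, so each SE uses the residual spread of all groups. Two-sided p-values were adjusted by Benjamini-Hochberg at 0.05, and the rule for support used a second fit on quantile normalized arrays. The script was tested on simulated data.

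Genes were named by a rule. It took the 12 largest supported changes in each direction among genes with several probe sets, ranked by the second supporting probe set, and the 6 largest among those with 1. It took up to 6 supported members of each list and members whose role is described, and, for the difference from the epididymis, the 6 with the smallest p in each direction, skipping predicted genes and families of shared sequence in all but the lists. There were 34 process and 13 marker lists. The comparison, the rule and the lists were chosen with earlier results of these data known. Same-numbered arrays were not taken as pairs, since their deviations correlated at 0.08. The number of arrays sets the precision. Alternatives were other scalings, centring, the mean of probe sets, a variance filter, robust moderation, a replicate block, other sets of arrays and single arrays left out.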

Additional observations from a re-analysis of the deposited data

Results flagged for a closer look

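These genes named above were picked out because their change from E16.5 to E18.5 in the efferent duct differed from that in the epididymis, by the test of the difference on both scales; values are the difference of the 2 changes on the log2 scale, efferent duct minus epididymis. Above 0, the difference was 3.0 for Abca8a, 2.42 for Ank2, 2.12 for Dmkn, 1.92 for Tppp3, 1.88 for Cast, 1.77 for Adcy7, 1.76 for Pappa2, 1.47 for Emx2, 1.44 for Insig1, 1.41 for Pappa, 1.37 for Fah and 1.33 for Dmxl2. It was 1.32 for Igfbp6, 1.30 for Lpl, 1.30 for Col12a1, 1.29 for H2-Aa, 1.26 for Vegfa, 1.22 for Krt14, 1.20 for Dusp6, 1.10 for Ccn1, 1.09 for Hmga2, 1.04 for Marveld2, 1.03 for Kcne3 and 0.98 for Jun. It was 0.93 for Cldn4, 0.89 for Fgf1, 0.83 for Ddit4, 0.77 for Crabp1, 0.71 for Per1, 0.68 for Ebp and 0.65 for Ankrd37. 

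Below 0, the difference was -3.06 for Dnajc21, -2.33 for Kalrn, -2.31 for Aldh2, -2.31 for Hhip, -2.09 for Pik3cd, -1.93 for Chad, -1.69 for Sema6c, -1.69 for Mamld1, -1.68 for Tssk3, -1.57 for Foxk1, -1.50 for Sobp and -1.44 for Wapl. It was -1.43 for Cytl1, -1.40 for Gata3, -1.35 for Irs2, -1.26 for Aqp2, -1.21 for Hoxd12, -1.18 for Pou5f1, -1.15 for Slc34a1, -1.14 for Akap4, -1.09 for Scrt2, -1.08 for Actn2, -1.0 for Tfap2b and -0.99 for Cyp26a1. It was -0.98 for Trp73, -0.97 for Cldn16, -0.91 for Piwil2, -0.86 for Adgrl3, -0.86 for Treh, -0.83 for Hba-a1, -0.80 for Dppa3, -0.79 for Fkbp5 and -0.64 for Dnd1. No group holds more than 2 arrays, so none was searched for a single outlying array.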

How the results depend on the processing

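The 7344 genes called fell to 3928 after quantile normalization (2167 higher, 1761 lower, against 4500 and 2844 as deposited), 4218 after scale normalization, an alternative chosen after seeing the data, 4117 with only the 4 arrays compared and 4404 with only the 8 efferent duct arrays, where fewer arrays estimate the spread. They were split 4043 and 1371 when the 40% of genes with the lowest variance were left out. The 2104 supported genes became 1263 with only the 4 arrays compared. Leaving out single arrays gave 3851 to 7456 called genes, 664 to 1430 supported genes and 2312 to 5647 genes whose change differed from the epididymis, of 4503; leaving out an epididymis array was also chosen after seeing the data, as were the refit counts by list. With a replicate block the counts were 7402, 2077 and 4572, and the block changed the call of 1 named gene, Pgk1, to an adjusted p of 0.0493. The other settings kept all 3 counts within 1.5 times: centring, robust moderation, the mean of probe sets for the counts of called genes and of differences, the variance filter, and leaving out the late vas deferens and epididymis E14.5 arrays; so did a support of 1.5-fold (1417) and scale normalization as the second scale (2025) for the supported genes. The mean of probe sets and the quantile scale give no count of supported genes, since the rule uses both.

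For the named genes, 2703 of the values under an alternative kept direction and call, 197 lost the call, 30 gained it and 13 turned direction. Of the genes that turned, 2 were called on all arrays. These were Amn (1.18) and Lect2 (0.35), under scale normalization. The others did not pass as deposited either: Cftr at -0.01, Mt2 at -0.29 and Pdzk1 at 0 after quantile normalization, and Slc26a3 at 3.37 after scale normalization and 0.21 by the mean of probe sets. Without single arrays Adipoq ranged from -0.64 to 0.061, Pdzk1 from -0.19 to 0.34, Rsph1 from -0.76 to 0.032 and Slc26a3 from -0.24 to 0.14. The cause of these shifts was not tested. Signal over background cannot be read from ratios to a median, so no gene could be tested for being above background.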
